A study of Rattus norvegicus with 9 samples.

Results

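The contractile unit of heart muscle, the sarcomere, was followed here through 31 genes whose proteins build its filaments and anchors: 7 of the thick filament, 6 of the thin filament, 3 of titin and the M-band, and 15 of the Z-disc and the structures linked to it. They were chosen by gene symbol, by a rule that uses no measured value, although earlier results of these data were known. Of the 31 symbols, 29 had a row among the 28935 genes of the count table, and 27 had enough counts to be tested, among 14151 tested genes in all. Ttn, the giant spring protein titin, and Tcap, which caps titin at the Z-disc, were not matched to a row and are not analysed here. Lmod2, which lengthens thin filaments, had 1 count and Myot, a Z-disc crosslinker, had 0 counts among the 59005333 counts of all libraries. A count of 0 there allows up to 3 counts, or 0.0508 CPM (counts scaled to a common library size). Myh9, a non-muscle myosin that nearly all cells use, had only 2 counts, so these genes are described only as listed at or near 0.

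In a sarcomere, thick filaments of myosin pull on thin filaments of actin, and calcium binding to troponin on the thin filament switches the pull on. The Z-disc holds the ends of the thin filaments and passes force between neighbouring sarcomeres, while the M-band crosslinks the thick filaments at their middle. Heart muscle changes some of its isoforms with age and load. The balance of Myh6 (alpha myosin heavy chain, the fast form) to Myh7 (beta, the slow form) is a classic measure of this in rodents, where Myh7 dominates the ventricle before birth and Myh6 afterwards.

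The cells were neonatal rat ventricular myocytes, primary cultures made from the ventricles of Sprague-Dawley rats aged 1 or 2 days. After 48 h in medium with 3% serum they were infected with an adenovirus for GFP (the control), Nfya (the DNA-binding subunit of the CCAAT-binding factor NF-Y) or Nfe2l1 (a cap'n'collar transcription factor), and RNA was collected after a further 48 h without serum, from 3 libraries per virus and 9 in all. All groups, GFP included, therefore carried a virus and lacked serum for the same time. From the labels it cannot be learned how many animals were pooled, which cells other than myocytes remained, or if replicate libraries stem from cultures of their own, so p-values reflect library-to-library spread that may be technical only. Values below are means ± SD (n = 3 libraries), and log2 fold changes carry their SE. A gene is "called" at an adjusted p below 0.05 in edgeR's quasi-likelihood test over all tested genes.

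The transcript of each delivered factor was examined first, because it checks the labels. Nfya was at 80.4 ± 2.19 CPM in GFP, 89.0 ± 0.683 in the libraries labelled Nfya and 92.3 ± 2.20 in those labelled Nfe2l1. Nfe2l1 was at 240.7 ± 6.09 CPM in GFP, 223 ± 4.79 in the libraries labelled Nfya and 239 ± 6.14 in those labelled Nfe2l1. The Nfya rise was small and present with both labels (0.15 ± 0.04 and 0.20 ± 0.04 on the log2 scale, adjusted p = 0.00926 and 0.000206), and Nfe2l1 was not called in its own libraries (-0.0075 ± 0.031). Neither transcript therefore stood out in the libraries labelled with it, and whether a delivered sequence would be counted is not given in the sources used here. The groups are called the Nfya-labelled and the Nfe2l1-labelled libraries for this reason.

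Sarcomere transcripts were among the most densely counted of these libraries, and this bears on how far their values can move. Counts per base of gene length, as a mean over the 9 libraries, ranged from 0.213 for Cmya5 to 1.45 for Tnnt2 (cardiac troponin T, which ties troponin to tropomyosin), the highest value of all tested genes. Of the 27 tested members, 22 were above 0.5 counts per base, or 81.5%, against 5.00% of all tested genes. Library totals ran from 5712123 counts in GFP replicate 3 to 7310774 in Nfe2l1 replicate 3, with the other 7 libraries between 6479766 and 6782414. The GFP replicate 2 total was 1.19 times that of GFP replicate 3, yet the members' counts differed by a median factor of only 1.10. The same factor was 1.30 for tested genes under 0.1 counts per base (with at least 50 counts on average) and 1.10 for all genes above 0.5. For the 5 members at or under 0.5 it was 1.11, against 1.20 for all genes of 0.1 to 0.5. Why these less dense members also followed depth weakly was not tested. Between Nfe2l1 replicates 3 and 2 the totals differed 1.13-fold and the members 1.04-fold. Counts of dense genes thus followed depth less than those of sparse genes, and most members were high in CPM in the shallowest library and low in the deepest. Counts of called members per comparison are given with and without these 2 libraries, an alternative chosen after seeing the data. Part medians and counts by part, by density or by promoter match are given with all libraries only.

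**Figure D1:**
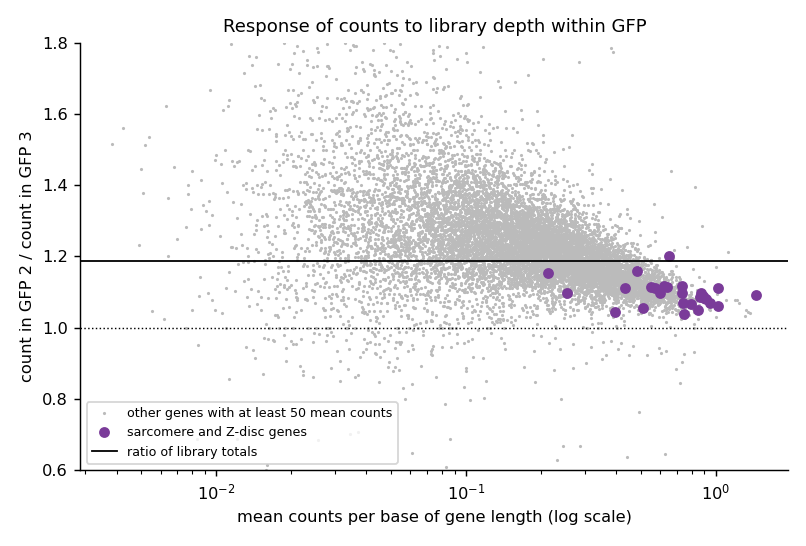
Ratio of the count in GFP replicate 2 to that in GFP replicate 3 (vertical axis, no unit) for each gene, against its mean counts per base of gene length over the 9 libraries (horizontal, log scale). Purple points are the tested members and grey points other genes with at least 50 mean counts; the solid line marks the ratio of the library totals, 1.19, and most members lie below it, with a median of 1.10.

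Levels per unit length, in RPKM (deposited by the authors, adjusted for gene length and depth), were compared between members in GFP. Tnnt2 was highest at 225 ± 9.68 RPKM, followed by the ventricular essential light chain Myl3 at 162 ± 5.73, cardiac actin Actc1 at 150.0 ± 8.66, the intermediate filament protein desmin (Des) at 147 ± 8.48 and alpha-actinin Actn2, which crosslinks thin filaments in the Z-disc, at 141 ± 7.58. The lowest were the atrial regulatory light chain Myl7 at 37.7 ± 1.67 RPKM and Cmya5 (myospryn, a large costamere-linked protein) at 40.0 ± 0.640. In CPM, Myl7 was above Myl2 in GFP (78.2 ± 3.85 against 42.9 ± 0.130), with deposited lengths of 2064 and 480 bases. The order of these 2 genes per unit length therefore rests on those lengths. Neighbours among Actc1, Des and Actn2 differed by less than their SD. Since dense genes respond less to depth, the distances between the highest levels may be compressed in the same way.

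With the Nfya label, 9 members were higher than in GFP and 1 was lower, 10 of 27 in all (37.0%). Among all tested genes 52.2% were called, 24.3% higher and 27.9% lower, and among the 708 genes above 0.5 counts per base 27.1% were called, 8.05% higher and 19.1% lower. The members' share called was thus below that of all genes, and among the 22 members above 0.5 counts per base it was 22.7% (5 genes). The median log2 difference was 0.046 over the tested members and -0.024 over all tested genes. The called members were Myom1, Xirp2, Myl2, Csrp3, Synpo2l, Nebl, Myh6, Myl7 and Actc1 upwards and Cmya5 downwards. Groups did not overlap for 11 members, against 61.6% of all genes.

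With the Nfe2l1 label, 9 of 27 members were called (33.3%), 3 higher and 6 lower than in GFP. All tested genes were called in 58.6% of cases, 28.9% higher and 29.7% lower, and the genes above 0.5 counts per base in 37.0%, 13.4% higher and 23.6% lower, against 27.3% of the members above it. Myom1, Nebl and Xirp2 were the higher members, and Myl3, Myl4, Tpm1, Ldb3, Cmya5 and Xirp1 the lower. The members' median log2 difference was -0.036, against -0.0066 over all genes, and groups did not overlap for 10 members against 64.0% of all genes. Both comparisons share the GFP libraries.

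The split for the Nfe2l1 label depended on the shallowest and the deepest library. Without GFP replicate 3 and Nfe2l1 replicate 3, 11 members were called against GFP, 9 higher (Myh7, Myl2, Actc1, Myom2, Csrp3 and Synpo2l beside Myom1, Nebl and Xirp2) and 2 lower (Cmya5 and Xirp1), with a background of 52.6% (26.3% higher and 26.4% lower), and the members' median turned from -0.036 to 0.050. The lower values of Myl3, Myl4, Tpm1 and Ldb3 were then no longer called (adjusted p = 0.431, 0.282, 0.204 and 0.118). Leaving out Nfe2l1 replicate 3 alone gave 5 higher and 2 lower members and a median of 0.017, and leaving out GFP replicate 3 alone 4 higher and 5 lower. For the Nfya label, the same 2 libraries left out gave 13 higher and 1 lower members, with a background of 49.2% (22.2% higher and 26.9% lower).

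**Figure D2:**
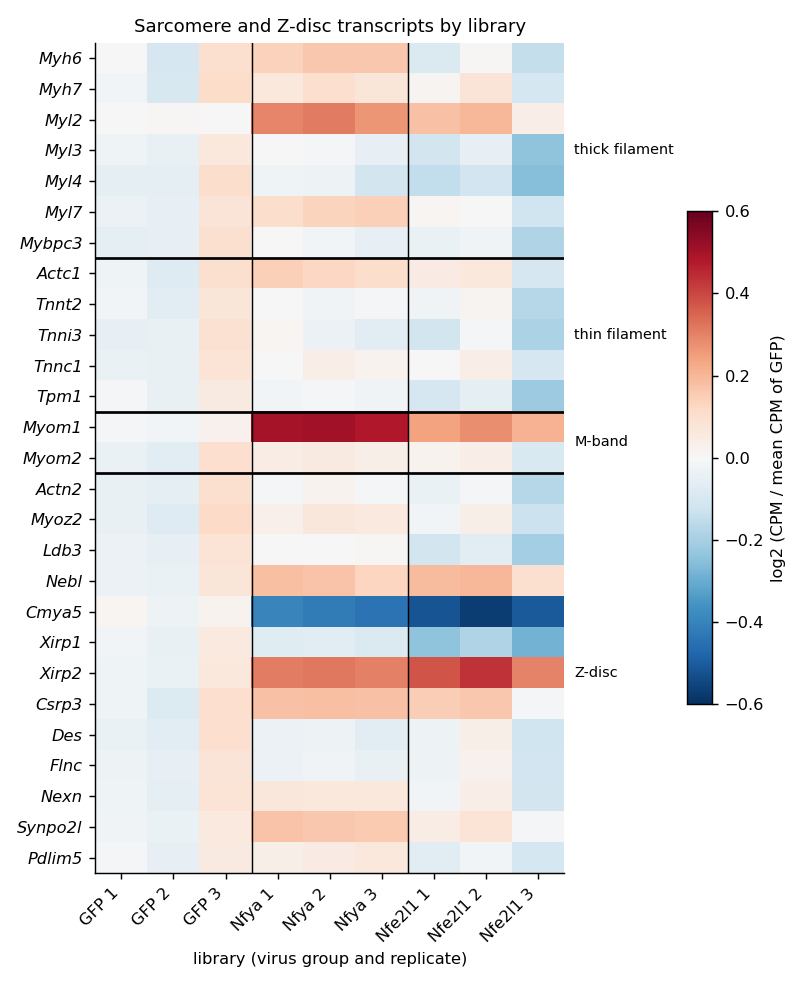
Each tested member (rows, by part of the sarcomere) in each library (columns), coloured by the log2 ratio of its CPM to the mean CPM of the GFP libraries. Myom1, Xirp2 and Cmya5 stand apart from GFP in all libraries of both labels; most other members are slightly high in GFP 3 and low in Nfe2l1 3.

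**Figure D3:**
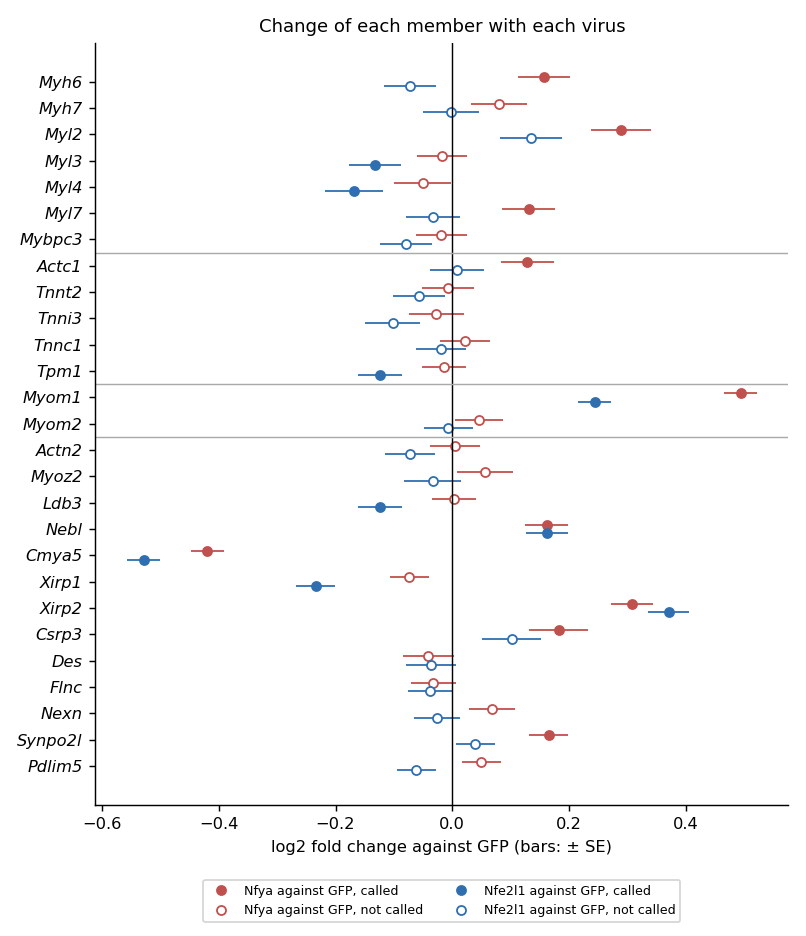
Log2 fold change of each tested member against GFP (horizontal axis, bars ± SE), with the Nfya label in red and the Nfe2l1 label in blue; filled points are called members. Myom1 with the Nfya label (0.49) is the largest rise and Cmya5 with the Nfe2l1 label (-0.53) the largest fall.

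In the thick filament, 3 of 7 members were higher with the Nfya label and none was lower. Myl2, the ventricular regulatory light chain that tunes the pull of myosin heads, had 42.7, 43.0 and 42.8 CPM in GFP replicates 1, 2 and 3. It had 52.6, 53.2 and 51.5 CPM in the Nfya-labelled libraries and 48.4, 49.2 and 44.0 in the Nfe2l1-labelled ones. All libraries of both labels were above all GFP libraries. Myl2 rose by 0.29 ± 0.05 on the log2 scale with the Nfya label (adjusted p = 0.000194), or 22.3% above GFP. It was 0.14 ± 0.05 with the Nfe2l1 label, which missed the threshold (adjusted p = 0.0807) and passed it without Nfe2l1 replicate 3 (adjusted p = 0.0194).

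Myl7, the atrial counterpart of Myl2, had 76.3, 75.7 and 82.6 CPM in GFP, 84.1, 85.9 and 86.2 in the Nfya-labelled and 78.8, 78.4 and 72.0 in the Nfe2l1-labelled libraries. The Nfya-labelled libraries lay just above the highest GFP library, and the Nfe2l1-labelled ones overlapped with GFP. Myl7 was called higher with the Nfya label at 0.13 ± 0.05 (adjusted p = 0.0233). That call did not hold without Nfya replicate 2 or without Nfya replicate 3 (adjusted p = 0.0634 and 0.0687), nor with DESeq2 (adjusted p = 0.157).

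The essential light chains stiffen the myosin lever arm. Myl3 had 144, 142 and 153 CPM in GFP, 146, 145 and 141 in the Nfya-labelled and 136, 141 and 124 in the Nfe2l1-labelled libraries. Its atrial and fetal counterpart Myl4 had 98.7, 98.1 and 110.0 CPM in GFP, 100.5, 99.996 and 94.7 in the Nfya-labelled and 92.4, 94.5 and 85.8 in the Nfe2l1-labelled libraries. For both genes Nfe2l1 replicate 3 was the lowest of all libraries and GFP replicate 3 the highest. The log2 fold changes with the Nfe2l1 label were -0.13 ± 0.04 for Myl3 (adjusted p = 0.0170) and -0.17 ± 0.05 for Myl4 (adjusted p = 0.00774). Without Nfe2l1 replicate 3 alone neither passed (adjusted p = 0.220 for Myl3 and 0.0921 for Myl4), and Myl3 was also lost without Nfe2l1 replicate 1 (0.0553) or GFP replicate 3 (0.0612). With DESeq2 neither passed (0.0949 for Myl3 and 0.0634 for Myl4). With the Nfya label neither was called, and Mybpc3, the myosin-binding protein C that brakes myosin heads, was called with neither label (log2 differences of -0.019 and -0.079).

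Myh6 had 357, 333 and 382 CPM in GFP, 394, 399.5 and 400.0 in the Nfya-labelled and 336, 359 and 323 in the Nfe2l1-labelled libraries. The Nfya-labelled libraries all exceeded GFP, and the Nfe2l1-labelled ones overlapped with it. Myh6 rose by 0.16 ± 0.04 on the log2 scale with the Nfya label (adjusted p = 0.00681), or 11.5% above GFP, and it stayed called under each alternative that was run. With the Nfe2l1 label it was -0.073 ± 0.045 and not called (adjusted p = 0.178), although it passed without GFP replicate 2 or without Nfe2l1 replicate 2 (adjusted p = 0.0463 and 0.0465).

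Myh7 had 658, 622 and 718 CPM in GFP, 695, 714 and 699.8 in the Nfya-labelled and 673, 702 and 619 in the Nfe2l1-labelled libraries. The groups overlapped with both labels, and the GFP libraries spread most. Its log2 difference was 0.080 ± 0.048 with the Nfya label (adjusted p = 0.179) and -0.0014 ± 0.048 with the Nfe2l1 label (adjusted p = 0.982). Without GFP replicate 3 Myh7 passed with the Nfya label at 0.14 (adjusted p = 0.0124), and without Nfe2l1 replicate 3 at 0.12 (adjusted p = 0.0461). Without both GFP replicate 3 and Nfe2l1 replicate 3 it was also called higher with the Nfe2l1 label (0.11, adjusted p = 0.00473).

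The balance of the myosin heavy chains was taken within each library, where it does not depend on library scaling, as the ratio of Myh6 to Myh7 counts per base. The ratio was 0.533, 0.526 and 0.524 in GFP, 0.557, 0.550 and 0.562 in the Nfya-labelled and 0.491, 0.502 and 0.514 in the Nfe2l1-labelled libraries. Myh7 was thus the more abundant chain everywhere, and the 3 groups did not overlap, with the Nfya-labelled libraries highest and the Nfe2l1-labelled lowest. The difference of mean log2 ratios was 0.076 for Nfya-labelled against GFP, -0.072 for Nfe2l1-labelled against GFP and 0.15 between the labels. Each gave p = 0.1 in the 2-sided exact permutation test, the smallest that 3 against 3 libraries can give, and 0.1875 after adjustment over the 15 ratio tests, so the design cannot pass 0.05. Myh6 and Myh7 are close paralogs, and how reads shared between them were assigned is not given in the sources used here, so the ratio is uncertain to that extent.

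The annotated starts of the heavy chain genes are shown because the ratio compares these genes and because NF-Y is known for binding CCAAT. RefSeq promoters (GRCr8, 250 bases before to 50 after the annotated start, in gene direction) lie at chr15:32411648-32411947 for Myh6 and chr15:32438145-32438444 for Myh7, both on the minus strand, with any CCAAT or its reverse complement ATTGG in capitals. The Myh7 window holds 2 such matches and the Myh6 window 0. The Myh7 window reads atg shortly after its annotated start, and whether either window covers the site where transcription begins was not tested.
Myh6: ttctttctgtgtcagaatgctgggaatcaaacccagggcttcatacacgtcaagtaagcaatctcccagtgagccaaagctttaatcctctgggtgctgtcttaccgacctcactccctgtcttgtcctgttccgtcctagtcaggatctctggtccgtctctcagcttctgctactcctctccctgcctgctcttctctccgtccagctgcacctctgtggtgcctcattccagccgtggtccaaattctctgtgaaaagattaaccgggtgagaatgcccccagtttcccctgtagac
Myh7: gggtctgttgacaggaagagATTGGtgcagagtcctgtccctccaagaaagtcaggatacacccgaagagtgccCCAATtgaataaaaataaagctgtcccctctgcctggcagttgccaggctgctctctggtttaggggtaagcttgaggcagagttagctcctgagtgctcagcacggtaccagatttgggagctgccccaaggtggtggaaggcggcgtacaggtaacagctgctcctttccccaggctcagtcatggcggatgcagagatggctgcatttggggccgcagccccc

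Among 4 other isoform pairs, Myl2 to Myl7 separated both labels from GFP. The ratio was 2.41, 2.44 and 2.23 in GFP, 2.69, 2.66 and 2.57 in the Nfya-labelled and 2.64, 2.70 and 2.63 in the Nfe2l1-labelled libraries, so that every library of either label was above GFP while the labels overlapped. The height of this ratio rests on the deposited lengths of 480 bases (Myl2) and 2064 bases (Myl7). The mean log2 ratio was 0.16 and 0.17 above GFP (exact permutation p = 0.1 for each), and 0.25 and 0.23 after undoing an assumed ceiling of 1.6 counts per base, at which counts of dense genes would level off. Actc1 to Acta1 (cardiac to skeletal actin, near-identical in coding sequence) was 0.987 ± 0.0025 in GFP and 1.03 ± 0.017 and 1.03 ± 0.0062 with the labels, again without overlap of either with GFP (0.065 and 0.067 on the log2 scale, or 0.12 and 0.11 after undoing the ceiling). Tnni3 to Tnni1, the adult to fetal troponin I, was 1.16 ± 0.0055 in GFP, 1.13 ± 0.020 with the Nfya label and 1.16 ± 0.023 with the Nfe2l1 label. For this pair the Nfya-labelled libraries lay below GFP without overlap (-0.045 on the log2 scale, exact permutation p = 0.1). The Nfe2l1-labelled ones overlapped with GFP. Myl3 to Myl4 overlapped in all 3 comparisons.

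**Figure D4:**
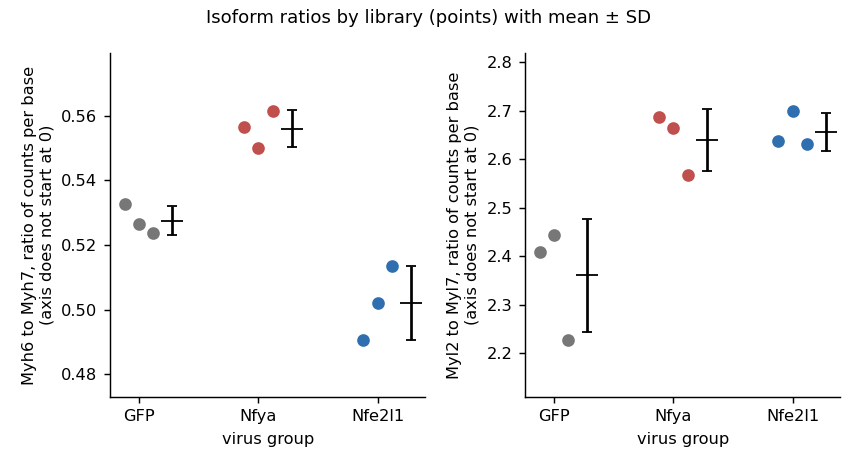
Ratio of counts per base of Myh6 to Myh7 (left) and of Myl2 to Myl7 (right) in each library, with the group mean ± SD beside the points; the vertical axes do not start at 0. For Myh6 to Myh7 the groups do not overlap (means 0.528, 0.556 and 0.502 for GFP, Nfya and Nfe2l1), and for Myl2 to Myl7 both labels lie above GFP.

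In the thin filament, 1 of 5 tested members was called with each label, Actc1 upwards with Nfya and Tpm1 downwards with Nfe2l1. Actc1 had 220.2, 213 and 239.9 CPM in GFP, 248, 245 and 241 in the Nfya-labelled and 232, 235 and 209 in the Nfe2l1-labelled libraries. Its lowest Nfya-labelled library exceeded the highest GFP library only slightly, and the Nfe2l1-labelled ones overlapped with GFP. Actc1 rose by 0.13 ± 0.05 (adjusted p = 0.0265). The call was lost without GFP replicate 2, Nfya replicate 1 or Nfya replicate 2 (adjusted p = 0.0587, 0.0830 and 0.0630), and with limma on log2(RPKM + 1) or log2(RPKM + 0.1) (0.0581 and 0.0641). After undoing the assumed ceiling Actc1 rose by 0.26 (adjusted p = 5.08e-05).

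Tpm1, tropomyosin, lies along actin and blocks myosin until calcium arrives. It had 303, 296 and 318 CPM in GFP, 302, 304 and 302 in the Nfya-labelled and 285, 294 and 263 in the Nfe2l1-labelled libraries. The Nfe2l1-labelled libraries were below GFP without overlap, by a narrow margin in replicate 2. The log2 fold change was -0.12 ± 0.04 with the Nfe2l1 label (adjusted p = 0.0111), and -0.064 without Nfe2l1 replicate 3 (adjusted p = 0.171). The troponins Tnnt2, Tnni3 (the inhibitory subunit) and Tnnc1 (the calcium sensor) were called with neither label, with log2 differences between -0.10 and 0.022. Tnni3 passed with the Nfe2l1 label without Nfe2l1 replicate 2 (-0.15, adjusted p = 0.0160). Tnnt2, the densest gene of the libraries, differed by -0.0069 ± 0.044 and -0.057 ± 0.044. After undoing the assumed ceiling, it was called higher with the Nfya label (0.16, adjusted p = 0.0145).

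Myom1, myomesin 1, crosslinks myosin tails and titin in the M-band and had the largest rise of all tested members with the Nfya label. It had 311, 309 and 319 CPM in GFP, 443, 444 and 437 in the Nfya-labelled and 371, 380.4 and 362 in the Nfe2l1-labelled libraries. The 3 groups did not overlap, and the libraries within each group lay close together. The log2 fold change was 0.49 ± 0.03 with the Nfya label (adjusted p = 6.90e-10), or 40.9% above GFP, and 0.24 ± 0.03 with the Nfe2l1 label (adjusted p = 2.05e-06), 18.5% above. Between the labels Myom1 differed by 0.25 ± 0.03 (adjusted p = 1.40e-06). All 3 calls held under each alternative that was run. Its relative Myom2, which is known from fast and adult fibres, was called with neither label (0.046 ± 0.041 and -0.0064 ± 0.042), and passed with the Nfya label at 0.097 without GFP replicate 3 (adjusted p = 0.0249). Without GFP replicate 3 and Nfe2l1 replicate 3 it was called higher with the Nfe2l1 label too (0.086, adjusted p = 0.00193).

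The Myom1 promoter is shown because, of the 8 called members with the Nfya label that had a promoter in the table, Myom1 was the only one whose window held a CCAAT match, while 8 of 15 members not called held one. It lies at chr9:118366896-118367195 on the plus strand (RefSeq, GRCr8), and the match, in capitals on the opposite strand as ATTGG, begins 84 bases before the annotated start. From the annotated start the window reads atg, the triplet that opens coding sequences. Whether the window covers the site where transcription begins was not tested.
Myom1: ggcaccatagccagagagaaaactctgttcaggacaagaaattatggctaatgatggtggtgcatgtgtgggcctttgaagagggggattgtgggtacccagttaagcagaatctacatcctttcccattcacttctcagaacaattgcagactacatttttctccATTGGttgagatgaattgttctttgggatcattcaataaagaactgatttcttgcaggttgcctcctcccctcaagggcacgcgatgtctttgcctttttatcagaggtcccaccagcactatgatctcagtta

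The Z-disc and its linked proteins held both the largest fall and the second largest rise with the Nfya label. Of 13 tested members, 4 were higher and 1 lower with that label, and 2 were higher and 3 lower with the Nfe2l1 label. Cmya5 binds alpha-actinin and desmin and was the only member called lower with both labels. It had 505, 491 and 509 CPM in GFP, 381, 375 and 369 in the Nfya-labelled and 351, 338 and 354 in the Nfe2l1-labelled libraries. Every library of either label was below every GFP library with a wide gap. The log2 fold change was -0.42 ± 0.03 with the Nfya label (adjusted p = 5.65e-09) and -0.53 ± 0.03 with the Nfe2l1 label (adjusted p = 2.93e-10), so that its level fell by 25.2% with the first and fell by 30.7% with the second. Cmya5 is also the least dense member, and both calls held under each alternative that was run.

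Xirp2 and Xirp1 are Xin repeat proteins that bind actin filaments at the intercalated disc and the Z-disc. Xirp2 had 989, 977 and 1050.0 CPM in GFP, 1243, 1253 and 1239 in the Nfya-labelled and 1306, 1356 and 1237 in the Nfe2l1-labelled libraries. Both labels lay above GFP without overlap and overlapped with each other. The log2 fold change was 0.31 ± 0.04 with the Nfya label (adjusted p = 2.57e-06) and 0.37 ± 0.04 with the Nfe2l1 label (adjusted p = 2.40e-07). Xirp1 had 557, 545 and 588 CPM in GFP, 535, 539 and 531 in the Nfya-labelled and 476, 498 and 463 in the Nfe2l1-labelled libraries. The Nfe2l1-labelled libraries were lowest, and the log2 fold change was -0.23 ± 0.03 (adjusted p = 1.79e-05), which held under each alternative that was run. The Nfya-labelled libraries were also below GFP without overlap. With the Nfya label the log2 fold change was -0.073 ± 0.033 and not called (adjusted p = 0.0758), but passed without Nfe2l1 replicate 2 (adjusted p = 0.0470). The paralogs thus differed in sign with the Nfe2l1 label, each past the threshold.

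Promoters of Xirp2 (chr3:72533936-72534235, plus strand) and Cmya5 (chr2:26113224-26113523, minus strand) are shown for contrast with Myom1, as the other members that changed most with both labels (RefSeq, GRCr8). Neither window holds CCAAT on either strand, and the Xirp2 window holds a match to the MEF2 motif.
Xirp2: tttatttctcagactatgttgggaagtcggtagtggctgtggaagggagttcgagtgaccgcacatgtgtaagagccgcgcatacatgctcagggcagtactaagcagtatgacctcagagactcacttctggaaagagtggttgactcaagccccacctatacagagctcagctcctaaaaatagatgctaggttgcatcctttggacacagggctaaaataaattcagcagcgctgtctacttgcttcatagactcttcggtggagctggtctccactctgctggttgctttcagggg
Cmya5: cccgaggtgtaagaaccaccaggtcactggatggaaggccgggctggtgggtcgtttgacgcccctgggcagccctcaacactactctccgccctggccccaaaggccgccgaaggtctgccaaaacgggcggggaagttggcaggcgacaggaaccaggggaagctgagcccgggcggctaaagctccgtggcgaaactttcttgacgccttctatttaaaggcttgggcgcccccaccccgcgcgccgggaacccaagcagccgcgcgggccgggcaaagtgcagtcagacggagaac

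Csrp3, the muscle LIM protein of the Z-disc known for its place in stretch sensing, had 91.9, 88.5 and 100.3 CPM in GFP. It had 106 CPM in each Nfya-labelled library and 104, 105 and 92.9 in the Nfe2l1-labelled ones. The Nfya-labelled libraries were all above GFP (log2 fold change 0.18 ± 0.05, adjusted p = 0.00593), and the Nfe2l1-labelled ones overlapped with it. The Nfe2l1-label difference was 0.10 ± 0.05 (adjusted p = 0.0962) and passed without GFP replicate 3 (adjusted p = 0.0159) or without Nfe2l1 replicate 3 (adjusted p = 0.00759). Nebl, nebulette, an actin-binding relative of nebulin at the Z-disc, rose by 0.16 ± 0.04 with each label. Synpo2l, a Z-disc actin-bundling protein, rose by 0.17 ± 0.03 with the Nfya label and had 0.040 ± 0.033 with the Nfe2l1 label. Ldb3 (cypher, a PDZ-LIM partner of alpha-actinin) fell by 0.12 on the log2 scale with the Nfe2l1 label (adjusted p = 0.0110), and the call was lost without Nfe2l1 replicate 1 or 3 (adjusted p = 0.0595 and 0.162).

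The other 6 tested Z-disc members were called with neither label. They were Actn2, Myoz2 (calsarcin, which tethers calcineurin), Des, Flnc (filamin C, an actin crosslinker), Nexn (nexilin) and Pdlim5 (an adaptor of alpha-actinin). Their log2 differences lay between -0.041 and 0.068 with the Nfya label and between -0.073 and -0.026 with the Nfe2l1 label. Of these, Nexn and Myoz2 passed with the Nfya label without GFP replicate 3 (adjusted p = 0.0204 and 0.0366), and Nexn also without Nfe2l1 replicate 3 (0.0336).

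The parts were then set side by side. Median log2 differences with the Nfya label were 0.080 in the thick filament, -0.0069 in the thin filament, 0.27 over the 2 M-band genes and 0.050 in the Z-disc. With the Nfe2l1 label they were -0.073, -0.057, 0.12 and -0.036. These medians use all libraries, and the median over all members with this label turned positive without GFP replicate 3 and Nfe2l1 replicate 3. Differences between parts were not tested. Summed levels of the M-band pair were 794 to 863 CPM in GFP, 957 to 969.7 in the Nfya-labelled and 839 to 903 in the Nfe2l1-labelled libraries. Of the part sums, only this one separated the Nfya-labelled libraries from GFP, and Myom1 supplied most of the difference. Summed thick filament levels were 1878 to 2112 CPM in GFP, 2037 to 2074 in the Nfya-labelled and 1782 to 1999.5 in the Nfe2l1-labelled libraries.

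Calls were also counted by density. All 5 members at or under 0.5 counts per base (Myh6, Myl7, Myom1, Nebl and Cmya5) were called with the Nfya label, where 53.5% of all genes at or under it and 54.5% of those between 0.1 and 0.5 were called, and 5 of the 22 above it, against 27.1%. With the Nfe2l1 label 3 of the 5 and 6 of the 22 were called, against 59.8% at or under it, 60.1% between 0.1 and 0.5 and 37.0% above. Between the labels 4 of the 5 and 8 of the 22 were called, against 51.9%, 55.4% and 25.7%. These classes rest on the deposited gene lengths. The part of density in which members passed was not tested.

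Compared directly, the Nfya-labelled libraries exceeded the Nfe2l1-labelled ones in 12 of 27 members and fell below them in none (44.4% called). All tested genes were called in 50.6% of cases, 25.2% higher and 25.4% lower, and those above 0.5 counts per base in 25.7%, 12.3% higher and 13.4% lower. Groups did not overlap for 16 members against 60.0% of all genes. The members were Myh6, Myl2, Myl3 and Myl7 in the thick filament, Actc1 and Tpm1 in the thin filament, Myom1, and Ldb3, Cmya5, Xirp1, Synpo2l and Pdlim5 at the Z-disc. The largest differences were 0.25 for Myom1, 0.23 for Myh6 (± 0.04, adjusted p = 0.000381) and 0.16 each for Myl7 and Xirp1. Without GFP replicate 3 and Nfe2l1 replicate 3, 7 members were higher and 1, Xirp2, was lower (-0.098, adjusted p = 9.73e-05), with a background of 47.9% (23.3% higher and 24.6% lower). Without Nfe2l1 replicate 3 alone, Myl2, Myl3, Actc1 and Tpm1 were no longer called (adjusted p = 0.150, 0.127, 0.122 and 0.0783) and 8 calls were left. Those 4 calls were also lost without Nfya replicate 1 or without Nfya replicate 2 (adjusted p from 0.0556 to 0.113), each of which left 8, and those of Myl3, Actc1 and Tpm1 also without Nfya replicate 3.

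Promoters were found in the RefSeq table for 25 member genes. CCAAT on either strand was present in the windows of 10 of them, against 37.5% of 33469 rat promoters of the same length. The units differ, since a gene was counted if any of its windows held a match, while the background counts windows. Tnnt2 and Xirp1 had more than 1 window, and only 1 of the Xirp1 windows held CCAAT. Among the called members with a promoter, 1 of 8 held it with the Nfya label (Myom1) and 6 of 9 with the Nfe2l1 label (Ldb3, Myl3, Myl4, Myom1, Tpm1 and Xirp1). Among tested members that were not called, 8 of 15 held it with the Nfya label and 3 of 14 with the Nfe2l1 label. The Nfe2l1-label counts rest on calls that changed without GFP replicate 3 and Nfe2l1 replicate 3. Ldb3, Myl3, Myl4 and Tpm1 were then no longer called, and Myh7, which also held a match, was called. TGACNNNGC, a core of the antioxidant response element to which cap'n'collar factors bind, was in 2 (Ldb3 and Myh7), against 12.1% of all. The CArG box, the site of serum response factor, was in 4 (Actc1, Ldb3, Myl3 and Nebl), against 1.64%, and the MEF2 motif in 4 (Mybpc3, Myoz2, Ttn and Xirp2), against 0.565%. These are matches of letters on either strand and were not weighed for overlap between motifs. Whether each window covers the site where transcription begins in these cells was not tested.

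A list of 50 other sarcomere-associated genes, of which 45 were tested, changed over a wider range than the members. With the Nfya label 14 were higher and 11 lower (55.6% called), and with the Nfe2l1 label 10 were higher and 18 lower (62.2%), close to the shares of all genes. Their log2 fold changes reached from -0.92 to 0.79 and from -2.34 to 1.51. The 6 genes with the largest changes were all below the lowest tested member (Myl2, 42.9 CPM in GFP), with Tnnt1 the highest of them at 27.4 ± 0.334 CPM in GFP.

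Tnnt1, the slow skeletal troponin T also made in the fetal heart, had 27.7, 27.3 and 27.1 CPM in GFP, 14.7, 16.6 and 16.9 in the Nfya-labelled and 9.02, 7.37 and 8.73 in the Nfe2l1-labelled libraries. The groups did not overlap, and the log2 fold changes were -0.77 ± 0.08 and -1.71 ± 0.10 (adjusted p = 1.45e-06 and 5.45e-10). Myoz1, the skeletal calsarcin, had 8.43, 6.80 and 6.90 CPM in GFP, 4.29, 3.65 and 3.73 in the Nfya-labelled and 0.777, 2.35 and 1.23 in the Nfe2l1-labelled libraries. It was lower without overlap (-0.92 ± 0.22 and -2.34 ± 0.27), although the first call was lost with limma on log2(RPKM + 0.1) (adjusted p = 0.0606). Tmod4, a capper of thin filament pointed ends, fell from 15.3 ± 2.04 CPM in GFP to 9.09 ± 1.22 and 8.36 ± 1.29. Myom3, the third myomesin, fell from 9.53 ± 0.473 CPM to 6.32 ± 0.650 and 5.19 ± 0.961, the first not called with DESeq2 (adjusted p = 0.0643).

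Ankrd23, an ankyrin repeat protein that binds titin in the I-band, had 6.89, 5.61 and 7.08 CPM in GFP, 11.2, 11.5 and 10.9 in the Nfya-labelled and 18.8, 16.6 and 20.2 in the Nfe2l1-labelled libraries. It rose by 0.79 ± 0.14 and 1.51 ± 0.13 (adjusted p = 0.000187 and 4.24e-08). Neb, nebulin, the ruler of skeletal thin filaments, rose from 8.63 ± 1.20 CPM to 13.8 ± 2.15 and 17.9 ± 1.85. Skeletal actin Acta1 and fetal troponin I Tnni1 were called with neither label against GFP and were higher in the Nfya-labelled than in the Nfe2l1-labelled libraries (0.12 ± 0.04 and 0.11 ± 0.04).

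**Figure D5:**
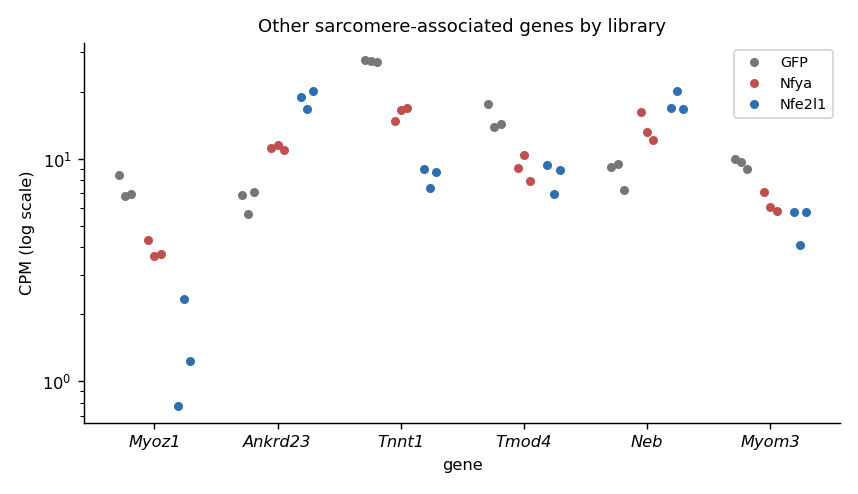
CPM (vertical, log scale) of 6 sarcomere-associated genes outside the 31 in each library, 3 points per virus group. Tnnt1 and Myoz1 are lowest, and Ankrd23 highest, in the Nfe2l1-labelled libraries, with the Nfya-labelled libraries between them and GFP.

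Markers of other cells moved with the labels. Cardiomyocyte markers outside the sarcomere (6 genes, none at 0) summed to 2182 to 2348 CPM in GFP, 2267 to 2308 in the Nfya-labelled and 2096 to 2248 in the Nfe2l1-labelled libraries, with overlap of both labels with GFP. Of these 6, Nkx2-5 and Corin were called higher with the Nfya label and Hrc lower with both labels (-0.17 and -0.35). The 10 fibroblast markers summed to 1093 to 1155, 2118 to 2140.3 and 1779.9 to 1911 CPM, and 9 of them were called higher with each label, while Col1a2 was called lower with the Nfya label. Col1a2 had 0.919, 17.3 and 10.4 CPM in GFP and 1.07, 1.52 and 3.43 in the Nfya-labelled libraries, so these groups overlapped. Smooth muscle and pericyte markers summed to 967 to 979, 1054 to 1073 and 740.1 to 762 CPM, so that they were lowest in the Nfe2l1-labelled libraries. Cspg4 was called lower with both labels. It had 431, 424 and 443 CPM in GFP and 223, 246 and 237 in the Nfe2l1-labelled libraries, most of the fall of that sum. With the Nfe2l1 label Cnn1 and Acta2 were also called lower, Pdgfrb was called higher, and Myh11 and Tagln were not called. Endothelial markers summed to 275 to 284, 342 to 354 and 384 to 399 CPM, macrophage markers to 54.7 to 69.6, 69.6 to 82.2 and 77.7 to 89.2, and epicardial and mesothelial markers to 91.0 to 98.9, 112 to 133 and 138 to 155. With the Nfya label, against 52.2% of all genes, 4 of 6 tested smooth muscle markers were called higher and 1 lower, 3 of 5 endothelial higher and 1 lower (Kdr, -1.08), 3 of 4 macrophage higher and 1 lower (Csf1r), and 5 of 6 epicardial higher and 1 lower (Krt18, -0.84). With the Nfe2l1 label, against 58.6%, the counts were 1 higher and 3 lower, 3 and 1 (Kdr), 3 and 0, and 5 and 1 (Krt18), so that Kdr and Krt18 fell while the sums of their lists were higher. The macrophage marker Cd163 was at 0 in the Nfe2l1-labelled libraries. Of 6 listed skeletal muscle markers, 4 were in the count table and only 2, Myh1 and Ckm, were tested. These markers summed to 145 to 160, 145 to 151 and 129.9 to 139 CPM, and whether that reflects skeletal muscle was not tested. In these bulk libraries fewer cells of a type and less RNA per cell cannot be told apart, and the part of other cells in the members' values was not tested.

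The authors' deposited tables hold the same 27 members. At a deposited FDR below 0.05 they list 11 higher and 1 lower with Nfya and 3 higher and 6 lower with Nfe2l1, where 50.4% and 56.7% of the genes in the authors' deposited tables pass. The 10 and 9 members called here are all among them with the same direction, and Myh7 (log2 fold change 0.11 in the authors' deposited table) and Nexn (0.10) pass only there, with Nfya.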

How the data were processed

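Per the labels, stranded mRNA libraries were made. The authors deposited whole-number counts per gene symbol, RPKM values with the gene length used for them, and edgeR results per virus. In the latter, per the file headers, fold changes and CPM are on a log2 scale, beside a likelihood ratio score, a p-value and an FDR, all deposited by the authors. Tools listed in the submitters' processing notes are edgeR 3.20.5, featureCounts 1.6.0 and FastQC 0.11.4. Which aligner, strand setting and duplicate handling were used is not given in the sources used here, and builds of rat and mouse are named with no role, so gene coordinates are not printed. Promoters come from a newer assembly (GRCr8) and were matched by symbol.

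The counts were tested with edgeR 4.0.16 in R 4.3.3 (filterByExpr, TMM, quasi-likelihood F test, 1 fit of 9 libraries with group as the only term, Benjamini-Hochberg adjustment over 14151 genes). CPM are scaled by TMM over the tested genes. Each SE divides the size of the log2 fold change by the root of its F. Counts per base are counts over the deposited length. Alternatives used DESeq2 1.42.0, limma 3.58.1 on log2(RPKM + 1) or log2(RPKM + 0.1), other scalings and filters, a replicate block, an assumed ceiling of 1.6 counts per base, and each library left out. The fit was tested on simulated data. Within groups, libraries differed by more than sampling noise among genes under 0.1 counts per base (chi-square per degree of freedom of 1.23 to 1.40), so none was counted as a duplicate. In genes above 0.5 counts per base, where most members lie, the same value was 0.447 to 0.683 between Nfya-labelled, 0.563 to 0.843 between Nfe2l1-labelled and 0.906 to 1.16 between GFP libraries, so that labelled libraries differed by less than sampling noise there. Between 0.1 and 0.5, where the remaining tested members lie, it was 0.778 to 0.842 between Nfya-labelled libraries, again less than sampling noise. In that class it was 0.949 to 1.25 between Nfe2l1-labelled and 0.913 to 1.38 between GFP libraries.

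Members and lists were chosen with earlier results of these data known. Values in every library are given for Myh6, Myh7 and, per part and label, up to 3 called members with the largest change, and the others by ranges. Of the other sarcomere-associated genes, the 5 with the largest change per label were named among called genes with at least 5 CPM and no overlap, plus Acta1 and Tnni1.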

Additional observations from a re-analysis of the deposited data

How the results depend on the processing

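Of the 31 member calls over the 3 comparisons, 19 were kept under every other test, scaling, filter and set of libraries that was run (18 of these also at an adjusted p below 0.01, Ldb3 between the labels not), among them all those of Myom1 and Cmya5 and those of Xirp2 and Nebl against GFP, and no called value changed sign. The direct comparison of the labels gave 7 called members, in place of 12, with DESeq2 and 7 at an adjusted p below 0.01, but 16 with library totals only. After undoing a ceiling assumed at 1.6 counts per base, 15 members were called with the Nfya label (13 higher, 2 lower), 12 with the Nfe2l1 label and 18 between the labels (17 higher, 1 lower). Leaving out 1 library at a time, the called members ranged from 8 to 14 for the Nfya label against GFP, from 7 to 11 for the Nfe2l1 label against GFP and from 8 to 14 between the labels. After undoing the same ceiling, the log2 ratio of Myh6 to Myh7 differed from GFP by 0.054 in place of 0.076 with the Nfya label and by -0.10 in place of -0.072 with the Nfe2l1 label. The labels number replicates 1 to 3 in each group, but deviations of same-numbered libraries correlated by only -0.173 to 0.052. These values show no pairing by number but cannot exclude it, with 3 libraries per group that also differ in depth. A fit with the replicate number as a block gave 9 called members in each comparison, in place of 10, 9 and 12, and Actc1 was not called with the Nfya label (adjusted p = 0.0510). Between the labels, Myl4 and Nexn passed in 10 alternatives each. Counts of dense members followed depth weakly, so their fold changes may be understated, and the processing step behind this was not tested.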
